A study of Homo sapiens with 8 samples.

Results

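The transcriptional response to (Z)-4-hydroxytamoxifen (4-OHT) was described in fibroblast clones with a knockout of SNORA13. The 4 libraries compared are the knockout (KO) libraries of a series of 8, which came from KO clones 66 and 69, each taken once without and once with 4-OHT. All 8 libraries are from BJ, a human skin fibroblast line, in a derivative labelled BJ-HRAS, and 4-OHT was given at 100 nM for 7 days. The other 4 libraries are from wild-type (WT) clones 15 and 54 under the same 2 conditions and serve here as the comparison. Each clone is a cell line grown from 1 cell, so the replicate is the clone. The p-values rest on the spread between libraries of a group, which mixes differences between clones with those between single libraries. The main fit does not pair the libraries of a clone. Of 58825 genes in the deposited table, 16540 had enough reads to be tested.

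In cells of this kind 4-OHT is used to switch on RAS fused to a modified oestrogen receptor, which otherwise waits in the cytoplasm. Sustained RAS activity in fibroblasts first drives growth signalling and then senescence, a lasting arrest of division with a secretory programme, in which the p53 and RB pathways hold the cell cycle genes down. SNORA13 belongs to the H/ACA small nucleolar RNAs (snoRNAs), which direct the change of uridine to pseudouridine in other RNAs. The series asks about a snoRNA in ribosome biogenesis and senescence.

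The targeted gene was checked first. SNORA13 lies at chr5:112161485-112161617 on the plus strand (GRCh38, GENCODE release 29), within the transcript EPB41L4A-AS1. Its 133 bases are shown as the targeted gene. These data do not show which of the bases the KO clones lack. The capitals mark the ACA box at position 128, the element near the 3′ end that names the class.

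SNORA13: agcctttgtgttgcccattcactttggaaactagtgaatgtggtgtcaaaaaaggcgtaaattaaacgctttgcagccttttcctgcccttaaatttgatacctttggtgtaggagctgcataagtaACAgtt

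No read of SNORA13 was found in any of the 4 KO libraries, where a count of 0 allows up to 3 reads per library. The WT clones 15 and 54 had 6 and 4 reads without 4-OHT and 5 and 7 reads with it. At this depth the gene could not be tested, and no library went against its label. The host transcript EPB41L4A-AS1, a long noncoding RNA, was at 6.78 and 7.63 RPKM without 4-OHT and 2.38 and 2.09 RPKM with it in clones 66 and 69, a fall of 3.13-fold, limma adjusted p = 3.9e-05.

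Every value below is RPKM, read counts divided by transcript length and library size, after scaling between libraries, and pairs of values are given for clone 66 and then clone 69. Fold changes are on the log2(RPKM + 0.1) scale, on which changes of scarce transcripts come out too small. A gene is said to rise or fall when its Benjamini-Hochberg adjusted p from limma, a linear model fitted over all genes, was under 0.05. The 4 KO libraries held 22973552 to 24264308 reads. The RNA of the signal recognition particle took 9.27% and 10.13% of reads without 4-OHT and 16.1% and 14.77% with it, and mitochondrial RNA took 0.32% and 0.34% without and 0.18% and 0.17% with it. Both shares moved with treatment in both KO clones. With these RNAs left out before scaling, the counts of genes called were 4767 genes higher and 4403 lower, against 4753 and 4453 with them.

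The fibroblast label was checked on 15 marker genes, of which 14 were above 1 RPKM and POSTN had no read in any KO library. The summed level of the 15 was 5470 and 5220 RPKM without 4-OHT and 4580 and 4010 RPKM with it, while single members went both ways. Of the 14 tested, 10 fell and 4 rose (median -0.895 log2). FAP, a surface protease of activated fibroblasts, fell from 38.7 and 41.8 RPKM to 2.23 and 2.06 RPKM, and the abundant intermediate filament gene VIM rose from 777 and 774 RPKM to 1269 and 1045 RPKM. Of 12 epithelial markers, TP63, GRHL2, KRT5 and KRT14 had no read, and the summed level, mostly KRT8, was 7.84 to 20.2 RPKM. Lists for endothelial cells, for immune cells and for melanocytes or neurons summed to 0.913 to 1.44, 9.2 to 10.6 and 0.823 to 3.87 RPKM, with no read of CDH5, CD68, TYR, DCT or S100B. In bulk RNA, fewer cells of a kind and less RNA per cell cannot be told apart.

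With 4-OHT, 4753 genes rose and 4453 fell, which is 28.7% and 26.9% of the 16540 tested. The change was at least 2-fold in 1877 of the genes that rose and 2069 of those that fell, and at least 8-fold in 192 and 239. The median change over all genes tested was 5.68e-05 log2, so a rise or fall is relative to a typical gene. Both clones moved in the same direction in 14235 genes (86.1%), and in all 9206 genes called. A call rests on the mean change of the same 2 clones against the spread between libraries. The agreement among called genes is therefore largely built in and adds nothing to the calls. The treated and untreated libraries did not overlap in 13343 genes (80.7%). Between the clones, changes had a median gap of 0.185 log2, and the gap exceeded 1 log2 in 817 genes (4.94%). Across genes, which are not independent replicates, the changes in the 2 clones correlated at a Pearson r of 0.917 and a Spearman rho of 0.874. Long intergenic RNAs moved downward more often than upward, with 101 rising and 218 falling of 664 tested, whereas among snoRNAs 37 rose and 6 fell of 103.

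**Figure D1:**
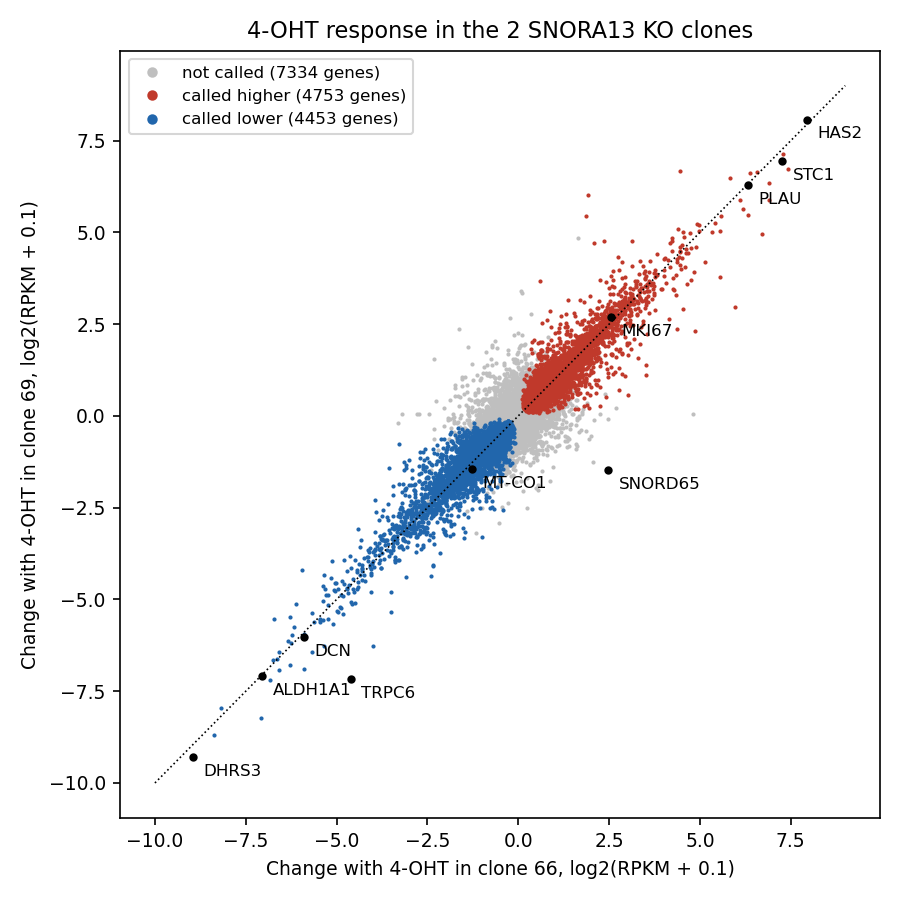
Change with 4-OHT in clone 66 (x axis) and clone 69 (y axis), as differences of log2(RPKM + 0.1), 1 point per gene for 16540 genes; red and blue points are called higher and lower, black points are named and the dotted line marks equal change. Points of the 9206 called genes lie in the lower left and upper right corners, and SNORD65 is one of the few far off the line.

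Some of the genes with the largest rises are given first. HAS2, a hyaluronan synthase, had 0, 1, 2306 and 2933 reads in untreated clones 66 and 69 and treated clones 66 and 69, and stood at 0 and 0.00956 RPKM without 4-OHT and 24.6 and 29.4 RPKM with it. STC1, the secreted glycoprotein stanniocalcin 1, rose from 4.14 and 4.89 RPKM to 654 and 617 RPKM (138-fold, limma adjusted p = 6.47e-07). The EGF receptor ligand AREG (amphiregulin) rose from 0.906 and 0.788 RPKM to 83.6 and 86.5 RPKM (90.03-fold, limma adjusted p = 1.23e-06). TMEM158, a gene first known for its induction by RAS, rose from 4.04 and 4.29 RPKM to 397 and 438 RPKM (97.7-fold, limma adjusted p = 2.02e-06), and TRPA1, an irritant-gated cation channel, rose from 0.0798 and 0.0781 RPKM to 27.97 and 24.9 RPKM (148-fold, limma adjusted p = 9.78e-07). The interstitial collagenase MMP1 differed between the untreated clones and rose in both, from 14.6 and 32.9 RPKM to 1757 and 1936 RPKM (83.7-fold, limma adjusted p = 1.06e-05). The largest rises were taken only among called genes whose treated and untreated libraries did not overlap, so that separation was a condition of the choice. Over all genes tested 80.7% had no overlap.

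Some of the genes with the largest falls follow. DHRS3, a retinal reductase, had 4224, 4733, 3 and 2 reads in the same order, and stood at 79.5 and 87.2 RPKM without 4-OHT and 0.0617 and 0.0386 RPKM with it, and its call was lost in limma-voom (limma adjusted p = 0.0664). ALDH1A1, a retinaldehyde dehydrogenase, fell from 1374 and 1448 RPKM to 10.3 and 10.6 RPKM (134-fold, limma adjusted p = 3.94e-06). The muscarinic receptor gene CHRM2 fell from 71.8 and 71.7 RPKM to 0.650 and 0.495 RPKM (108-fold, limma adjusted p = 6.47e-07), and OLR1, a receptor for oxidised lipoprotein, fell from 28.5 and 25.7 RPKM to 0.166 and 0.155 RPKM (104-fold, limma adjusted p = 6.47e-07). IGFBP5, an insulin-like growth factor binding protein, fell from 809.6 and 958 RPKM to 10.6 and 13.2 RPKM (74.1-fold, limma adjusted p = 7.51e-06). KRT4, an epithelial keratin gene that these fibroblasts transcribed, was at 28.7 and 24.9 RPKM without 4-OHT and had no read in either treated library, which makes it at least 436-fold lower against a floor of 3 reads per library. PTGIS, prostacyclin synthase, was likewise at 9.54 and 8.51 RPKM and then without a read, at least 382-fold lower. The largest falls were taken under the same condition, so the separation of their libraries is no further result.

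**Figure D2:**
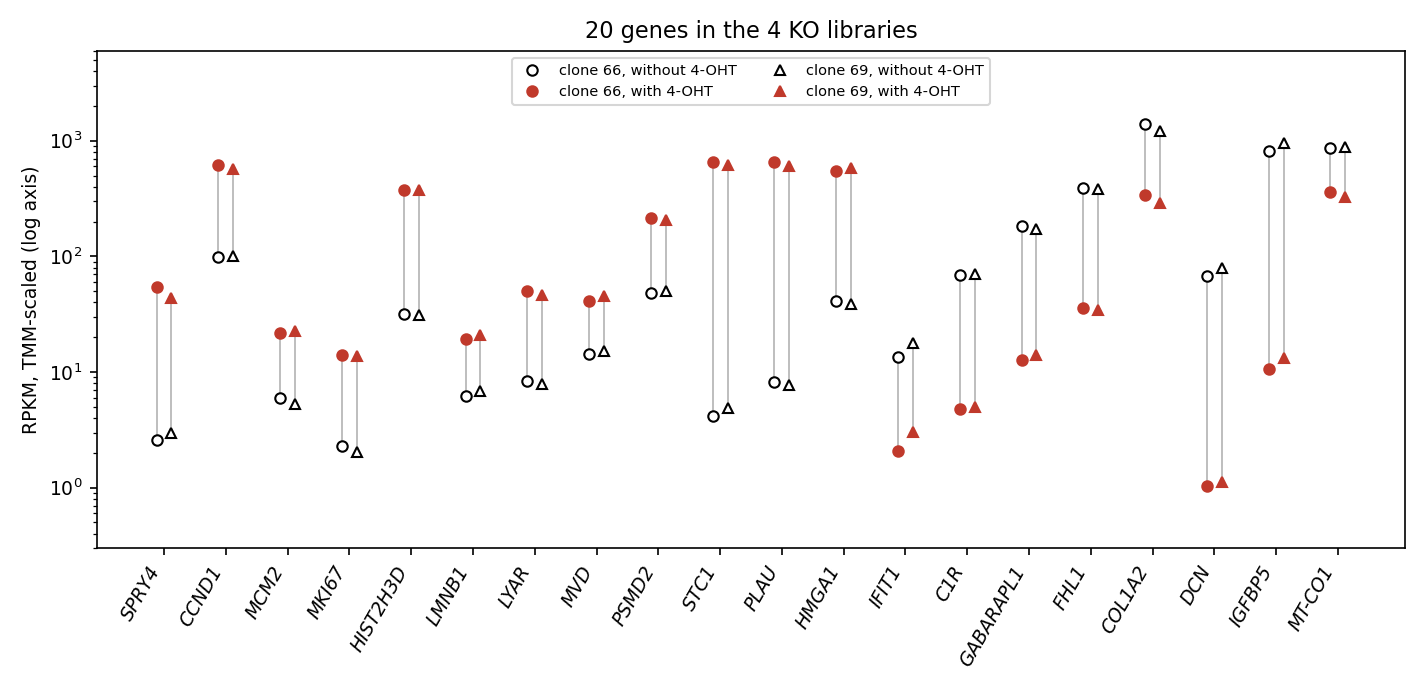
Scaled RPKM (log axis) of 20 genes in the 4 KO libraries; circles are clone 66, triangles clone 69, open symbols without and filled red symbols with 4-OHT, and grey lines join the libraries of a clone. The clones lie close together in each condition, and for each of the 20 genes both treated libraries sit on 1 side of both untreated libraries. The genes were picked for display, and 80.7% of all genes tested had no overlap.

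Genes under RAS control moved in part upward and in part downward. HRAS itself, whose reads include any HRAS construct that the counting could not separate, rose from 202 and 198 RPKM to 363 and 334 RPKM (1.74-fold, limma adjusted p = 0.000173). Its response was higher than in the WT clones by 0.55 ± 0.12 log2 (limma adjusted p = 0.0358), a call that was lost in 7 of 17 alternatives, among them the fit with the clone as a block (limma adjusted p = 0.0565). Of 22 genes of the RAS core 6 rose (27.3%) and 10 fell (45.5%), against 28.7% and 26.9% of all genes tested. The response was lower in KO than in WT for 5 of them, where 3.07% of all genes tested had a lower and 4.37% a higher response in KO. It was lower for 2 with the clone as a block and for none without untreated clone 66. Of 16 tested inhibitors that RAS-MAPK signalling induces as feedback, 9 rose and 4 fell, with a median change of 1.56 log2 (1.64 in the WT clones), and a median difference of responses of -0.536 log2. SPRY2, a Sprouty inhibitor of receptor signalling, rose from 6.05 and 6.68 RPKM to 60.5 and 51.7 RPKM (8.67-fold, limma adjusted p = 2.32e-06), and the ERK phosphatase DUSP6 rose from 17.4 and 17.3 RPKM to 80.2 and 73.8 RPKM (4.41-fold, limma adjusted p = 1.12e-05). DUSP1, a stress-responsive MAP kinase phosphatase, went the other way and fell from 221 and 219.7 RPKM to 61.5 and 54.7 RPKM (3.79-fold, limma adjusted p = 6.98e-06). Both phosphatases had a lower response in KO than in WT, DUSP1 by -0.99 ± 0.12 log2 (limma adjusted p = 0.00701) and DUSP6 by -0.88 ± 0.16 log2 (limma adjusted p = 0.0215), the latter lost in 6 of 17 alternatives. Among 28 ETS, AP-1 and immediate early factors 16 rose and 10 fell. The ETS factor ETV1 rose from 0.0913 and 0.0447 RPKM to 8.04 and 5.48 RPKM (40.5-fold, limma adjusted p = 7.88e-06), while the AP-1 subunits split, FOSL1 rising from 4.93 and 4.46 RPKM to 43.0 and 32.4 RPKM and FOSL2 falling from 31.7 and 29.7 RPKM to 5.08 and 4.68 RPKM (limma adjusted p = 8.19e-05 and 4.38e-06). ERRFI1, a feedback inhibitor of the EGF receptor, rose from 6.22 and 6.94 RPKM to 109 and 135 RPKM (18.2-fold, limma adjusted p = 1.14e-06), and ERBB2 fell from 33.4 and 29.2 RPKM to 10.5 and 12.5 RPKM (2.71-fold, limma adjusted p = 5.17e-05). Growth factors of the PDGF, FGF and VEGF families did not move together, with 15 of 31 rising and 12 falling. VEGFA rose from 1.63 and 2.02 RPKM to 5.72 and 7.53 RPKM and its relative PGF rose from 0.219 and 0.262 RPKM to 4.74 and 3.896 RPKM (3.48-fold and 12.9-fold). PDGFA fell from 7.99 and 7.25 RPKM to 0.628 and 0.847 RPKM and CSF1 fell from 10.9 and 10.2 RPKM to 1.46 and 1.64 RPKM (9.29-fold and 6.47-fold).

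Genes of the cell division cycle rose with 4-OHT in both KO clones. Of 22 tested cyclins and cell cycle kinases 17 rose and 3 fell (median 1.48 log2). Cyclin D1, CCND1, the RAS-responsive G1 cyclin, rose from 99.6 and 100.3 RPKM to 623 and 567 RPKM (5.94-fold, limma adjusted p = 8.16e-06). The mitotic cyclin CCNB1 rose from 9.33 and 9.11 RPKM to 79.5 and 81.2 RPKM (8.64-fold, limma adjusted p = 2.23e-05), and its kinase CDK1 rose from 5.19 and 5.04 RPKM to 19.5 and 21.01 RPKM (3.899-fold, limma adjusted p = 3.19e-05). Among 19 genes of the E2F and RB family, which turn on or repress S phase genes, 11 rose and 2 fell. The activator E2F1 rose from 2.39 and 2.37 RPKM to 9.67 and 9.91 RPKM and the atypical repressor E2F7 rose from 0.665 and 0.687 RPKM to 36.6 and 34.5 RPKM (3.995-fold and 45.9-fold), whereas RB1 was at 19.9 and 22.7 RPKM without 4-OHT and 22.4 and 19.5 RPKM with it and was not called. FOXM1, the factor that drives mitotic genes, rose from 6.25 and 5.196 RPKM to 18.9 and 18.2 RPKM (3.22-fold, limma adjusted p = 0.000119). The inhibitors of the same kinases moved in both directions, 4 of 7 tested rising and 3 falling. CDKN2A (p16) had no read in any of the 8 libraries and could not be tested. CDKN1A (p21) rose from 72.9 and 81.8 RPKM to 332 and 251.2 RPKM and CDKN2B (p15) rose from 5.16 and 4.61 RPKM to 12.7 and 13.5 RPKM, while CDKN1B (p27) fell from 71.1 and 68.0 RPKM to 20.4 and 22.01 RPKM, CDKN1C (p57) fell from 5.24 and 5.97 RPKM to 0.491 and 0.482 RPKM and CDKN2C (p18) fell from 27.4 and 29.1 RPKM to 7.99 and 8.14 RPKM.

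DNA replication genes rose as a group: 49 of 53 tested rose and 1 fell, with medians of 1.80 log2 in clone 66 and 1.81 in clone 69. CDC6, which loads the replicative helicase, rose from 3.54 and 3.38 RPKM to 13.5 and 13.5 RPKM (3.82-fold, limma adjusted p = 3.22e-05). The helicase subunit MCM2 rose from 5.97 and 5.33 RPKM to 21.7 and 22.6 RPKM (3.88-fold, limma adjusted p = 0.000192), and POLE2, a subunit of DNA polymerase epsilon, rose from 0.739 and 0.746 RPKM to 3.005 and 3.15 RPKM (3.77-fold, limma adjusted p = 0.000104). GMNN, the licensing inhibitor geminin, rose from 6.94 and 7.44 RPKM to 28.4 and 30.2 RPKM (4.03-fold, limma adjusted p = 1.88e-05). The deoxynucleotide enzymes followed, with 10 of 13 rising and 1 falling. The ribonucleotide reductase subunit RRM2 rose from 6.91 and 6.13 RPKM to 30.5 and 31.1 RPKM (4.68-fold, limma adjusted p = 5.87e-05) and thymidylate synthase TYMS rose from 1.31 and 1.11 RPKM to 5.19 and 5.498 RPKM (4.17-fold, limma adjusted p = 0.000127). RRM2B, the p53-induced form of the subunit, rose from 10.9 and 12.9 RPKM to 21.5 and 17.1 RPKM (1.61-fold, limma adjusted p = 0.00264).

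Promoters of these genes are known for binding sites of E2F factors, so the 250 bases before each RefSeq gene start (GRCh38.p14) were searched on both strands for TTTCCCGC, TTTCGCGC, TTTGCCGC and TTTGGCGC. A match was found in 12 of 45 replication genes with a promoter in the table (26.7%), in 2.79% of all 27305 promoters and in 4.51% of the 11055 promoters of tested genes. Of the 12 genes, 10 rose and 1 fell, where 49 of the 53 tested on the whole list rose. The same words were in 6 of 16 E2F and RB family promoters (37.5%), in 1 of 11 deoxynucleotide promoters (9.09%) and in 2 of 33 recombination promoters (6.06%). For mitotic genes the cell cycle homology region was searched as TTTGAA and TTCGAA, and matched in 29 of 56 (51.8%), against 14.6% of all promoters and 9.91% of those of tested genes. All 29 rose. The CCAAT box matched in 43 of 52 histone gene promoters (82.7%) and 40 of 56 mitotic ones (71.4%), against 33.0% of all. A match is a description of the sequence and no evidence of binding. One promoter is shown for each of these motifs, that of the matching member with the smallest p among those eligible for display. No promoter is shown for the E-box and AP-1 words searched further below. A member was passed over if it was not called, lay on a chromosome left out beforehand, or matched only within annotated exons. Stretches that GENCODE annotates as exon are not shown, and the capitals mark the matches.

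The first is PCNA (chr20:5126627-5126785, minus strand), the clamp that holds DNA polymerases on the template, with an E2F match 59 bases before the start on the other strand. The next is MKI67 (chr10:128126424-128126673, minus strand), the proliferation antigen Ki-67, with matches to the cell cycle homology region 47 and 29 bases before the start. The last is HIST1H2AJ (chr6:27814778-27815027, minus strand), a replication-dependent histone H2A gene, with 5 CCAAT matches in either orientation.

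PCNA: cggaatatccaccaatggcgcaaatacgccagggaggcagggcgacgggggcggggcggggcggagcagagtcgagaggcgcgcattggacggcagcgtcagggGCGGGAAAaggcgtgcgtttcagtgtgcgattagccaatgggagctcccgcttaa

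MKI67: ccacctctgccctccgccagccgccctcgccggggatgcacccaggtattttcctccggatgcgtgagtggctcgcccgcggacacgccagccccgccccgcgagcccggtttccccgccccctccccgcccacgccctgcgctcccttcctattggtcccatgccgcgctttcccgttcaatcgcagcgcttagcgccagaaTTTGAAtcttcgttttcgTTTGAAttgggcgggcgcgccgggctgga

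HIST1H2AJ: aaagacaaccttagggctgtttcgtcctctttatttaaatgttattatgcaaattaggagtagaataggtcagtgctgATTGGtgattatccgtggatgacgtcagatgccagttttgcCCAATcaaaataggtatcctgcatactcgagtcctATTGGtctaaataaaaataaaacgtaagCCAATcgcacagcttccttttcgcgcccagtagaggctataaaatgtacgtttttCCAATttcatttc

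PCNA rose from 31.9 and 30.3 RPKM to 112 and 107 RPKM (3.505-fold, limma adjusted p = 1.65e-05), and MKI67 rose from 2.31 and 2.04 RPKM to 13.98 and 13.8 RPKM (6.16-fold, limma adjusted p = 1.62e-05). HIST1H2AJ rose from 64.8 and 58.5 RPKM to 498 and 535 RPKM (8.37-fold, limma adjusted p = 1.97e-06). The 3 genes were chosen for a small p of this response, so the separation of their libraries adds nothing to the calls.

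All 67 genes on the mitosis and kinetochore list passed the filter and rose, by a median of 2.37 log2 in clone 66 and 2.45 in clone 69. NUF2, an outer kinetochore protein, rose from 1.899 and 1.14 RPKM to 17.3 and 21.03 RPKM (12.2-fold, limma adjusted p = 2.5e-05). The mitotic kinases followed, PLK1 rising from 1.21 and 1.11 RPKM to 10.9 and 8.77 RPKM (7.84-fold, limma adjusted p = 5.67e-05) and AURKA from 7.33 and 6.65 RPKM to 46.6 and 43.5 RPKM (6.38-fold, limma adjusted p = 1.84e-05). The spindle motor KIF11 rose from 3.83 and 3.903 RPKM to 16.2 and 16.5 RPKM (4.14-fold, limma adjusted p = 4.9e-05), and the cohesin protector CDCA5 rose from 3.02 and 2.81 RPKM to 19.7 and 21.3 RPKM (6.84-fold, limma adjusted p = 8.72e-06). Replication-dependent histone messages, which lack a poly(A) tail and which a total RNA library keeps, rose in all 61 genes that passed of 69 listed, and their summed level went from 4790 and 4620 RPKM to 20700 and 21700 RPKM. HIST2H3D rose from 31.8 and 31.2 RPKM to 377 and 375 RPKM (11.9-fold, limma adjusted p = 9.97e-05), HIST1H3G rose from 14.2 and 11.9 RPKM to 121 and 134 RPKM (9.75-fold, limma adjusted p = 5.54e-05) and the linker histone gene HIST1H1A rose from 22.04 and 24.1 RPKM to 89.7 and 81.8 RPKM (3.71-fold, limma adjusted p = 9.01e-06). Histone genes have near-identical copies, and how the reads were divided among copies is uncertain, so single histone genes are less sure than their sum.

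Genes that protect replicating DNA and package it rose in smaller numbers. Of 37 homologous recombination and checkpoint genes 28 rose and 1 fell (median 1.16 log2). The Fanconi anaemia core subunit FANCA rose from 0.486 and 0.461 RPKM to 3.54 and 3.82 RPKM (6.59-fold, limma adjusted p = 2.19e-05) and BRCA1 rose from 1.93 and 1.91 RPKM to 5.07 and 6.09 RPKM (2.801-fold, limma adjusted p = 0.000225), whereas the damage kinase ATM, at 10.9 and 10.8 RPKM without 4-OHT and 9.28 and 9.79 RPKM with it, was not called. Of 16 lamin and HMG chromatin genes 13 rose and none fell. LMNB1, the lamin B1 gene whose loss is a common mark of senescence, rose from 6.17 and 6.79 RPKM to 19.5 and 20.7 RPKM (3.07-fold, limma adjusted p = 0.000398), and HMGB2 rose from 21.9 and 19.6 RPKM to 37.7 and 45.9 RPKM (2.005-fold, limma adjusted p = 0.00212). HMGA1 and HMGA2, architectural proteins of senescent chromatin, rose from 41.2 and 38.8 RPKM to 553 and 576 RPKM and from 5.99 and 6.71 RPKM to 70.1 and 60.03 RPKM (14.1-fold and 10.1-fold). The maintenance DNA methyltransferase DNMT1 rose from 10.2 and 8.81 RPKM to 23.7 and 22.7 RPKM and its partner UHRF1 rose from 6.64 and 5.59 RPKM to 28.4 and 28.97 RPKM (2.43-fold and 4.65-fold), and 17 of 32 genes on that list rose, or 11 when untreated clone 69 or treated clone 66 was left out.

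The response of the KO clones was compared with that of the WT clones by the difference of the 2 responses, fitted over all 8 libraries. It was higher in KO for 722 genes (4.37% of those tested) and lower for 508 (3.07%). The numbers depended on single libraries, falling to 197 and 85 without treated clone 69 and growing to 1107 and 1009 without untreated clone 15. The genotype and whatever else sets the 2 KO clones apart from the 2 WT clones cannot be told apart. Of the 67 mitotic genes 66 had a higher response in KO, of the 61 histone genes 59, of the 53 replication genes 42, of the 37 recombination genes 19, and of the 22 cyclins and kinases 13. Without treated clone 69 these counts were 46, 32, 22, 8 and 8. In the WT clones the median changes of the same 5 lists were 0.283, 0.228, 0.173, 0.0867 and 0.351 log2, against 2.44, 2.43, 1.77, 1.16 and 1.48 in KO. The starting levels differed as well. Without 4-OHT the mitotic genes were at a median of -1.26 log2 in KO relative to WT, and with 4-OHT at 0.888 log2. For histones these medians were -0.723 and 1.41 log2, and for replication genes -0.704 and 0.866 log2. MKI67 in the WT clones was at 5.02 and 6.902 RPKM without and 5.804 and 6.24 RPKM with 4-OHT, so that untreated KO clones were below and treated KO clones above all 4 WT libraries. For LMNB1 the WT clones had 12.5 and 16.6 RPKM without and 5.92 and 8.87 RPKM with 4-OHT, a fall where the KO clones rose, and the responses differed by 2.599 ± 0.28 log2 (limma adjusted p = 0.00547). RRM2 differed by 2.52 ± 0.26 log2 (limma adjusted p = 0.0053) and PLK1 by 2.65 ± 0.34 log2 (limma adjusted p = 0.00751).

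**Figure D3:**
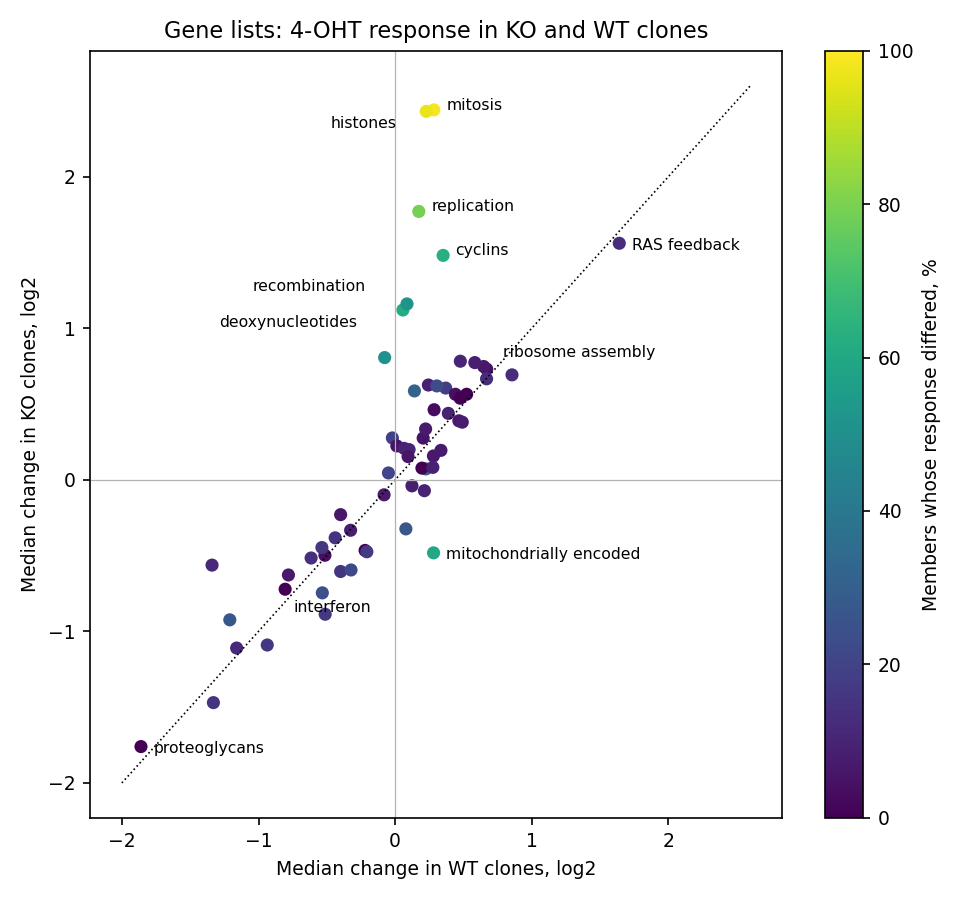
Median change with 4-OHT of each gene list with at least 10 tested members, in WT clones (x axis) and KO clones (y axis), both in log2; colour gives the share of members whose responses differed between genotypes and the dotted line marks equal medians. Mitosis, histone and replication genes lie far above the line, mitochondrially encoded transcripts lie below it, and RAS feedback genes lie near it.

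Ribosome production rose in the factors that build the particle and little in the particle's own proteins. Of 95 tested nucleolar assembly factors 83 rose and 2 fell (median 0.73 log2, 0.67 in WT). The difference of responses was called in 4 of them, higher in KO for 3 (3.16%) and lower for 1. Over all genes tested these shares were 4.37% and 3.07%. RRS1, which brings the 5S particle into the large subunit, rose from 7.12 and 7.42 RPKM to 26.7 and 28.2 RPKM (3.74-fold, limma adjusted p = 1.78e-05). BYSL, needed for the small subunit, rose from 7.47 and 7.17 RPKM to 19.1 and 19.2 RPKM (2.59-fold, limma adjusted p = 1.13e-05), and the methyltransferase fibrillarin, FBL, rose from 73.4 and 75.7 RPKM to 158 and 159 RPKM (2.12-fold, limma adjusted p = 8.75e-05). EIF6, which keeps new large subunits from joining, rose from 90.7 and 91.4 RPKM to 189.8 and 202 RPKM (2.15-fold, limma adjusted p = 2.43e-05). Of 16 genes of RNA polymerase I and its factors 9 rose and 1 fell. The subunit gene POLR1E rose from 9.66 and 9.72 RPKM to 19.1 and 17.7 RPKM (1.89-fold, limma adjusted p = 7.43e-05), and the factor UBTF, at 28.7 and 27.6 RPKM without 4-OHT and 29.5 and 29.5 RPKM with it, was not called. Of 86 cytosolic ribosomal protein genes 22 rose and 3 fell, both below the shares over all genes, and 9 rose without untreated or treated clone 66. RPL5 was at 623 and 656 RPKM without 4-OHT and 581 and 621 RPKM with it and RPL11 at 748 and 748 RPKM without 4-OHT and 701 and 720.1 RPKM with it, and neither was called.

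Of 426 snoRNAs listed, 98 passed the filter, of which 35 rose and 6 fell, and 21 rose without treated clone 69. SNORD35A rose from 11.6 and 11.3 RPKM to 20.0 and 20.2 RPKM (1.75-fold, limma adjusted p = 0.000349). Of 24 host transcripts of snoRNAs 9 rose (5 without treated clone 69) and 9 fell. SNHG16 rose from 53.9 and 57.5 RPKM to 107 and 98.8 RPKM (1.85-fold, limma adjusted p = 9.97e-05), while GAS5 fell from 61.9 and 62.03 RPKM to 34.9 and 41.2 RPKM (1.63-fold, limma adjusted p = 0.00137). A set of 44 cytosolic translation factors also split, with 20 rising and 13 falling. EIF5A, which helps ribosomes through proline stretches, rose from 180.2 and 188 RPKM to 456 and 425 RPKM (2.39-fold, limma adjusted p = 1.48e-05), EIF4EBP1, a repressor of cap binding, rose from 33.04 and 31.3 RPKM to 100.1 and 126 RPKM (3.48-fold, limma adjusted p = 1.67e-05), and the helicase gene EIF4A2 fell from 226 and 234 RPKM to 64.2 and 70.98 RPKM (3.40-fold, limma adjusted p = 3.09e-05). The vault RNA VTRNA1-3, a polymerase III product, rose from 20.0 and 21.4 RPKM to 90.5 and 89.2 RPKM (4.33-fold, limma adjusted p = 6.7e-05).

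Biosynthetic metabolism moved upward in most lists. Of 38 genes of cholesterol and fatty acid synthesis 27 rose and 2 fell (median 0.782 log2, 0.477 in WT). Mevalonate kinase, MVK, rose from 7.01 and 6.996 RPKM to 18 and 18.5 RPKM (2.58-fold, limma adjusted p = 1.09e-05), and MVD, the decarboxylase further along the pathway, rose from 14.2 and 15.1 RPKM to 40.8 and 45.2 RPKM (2.92-fold, limma adjusted p = 9.44e-06). Squalene synthase, FDFT1, rose from 51.1 and 53.1 RPKM to 128 and 144 RPKM (2.61-fold, limma adjusted p = 2.61e-05), and fatty acid synthase, FASN, rose from 28.1 and 23.4 RPKM to 64.9 and 57.97 RPKM (2.39-fold, limma adjusted p = 8.6e-05). Of 23 purine and pyrimidine enzymes 16 rose and 1 fell. PPAT, the first committed enzyme of purine synthesis, rose from 2.59 and 3.12 RPKM to 9.65 and 8.56 RPKM (3.13-fold, limma adjusted p = 4.62e-05). The E-box CACGTG, the word bound by MYC, was in 5 of 20 of their promoters (25.0%) and in 13 of 79 of the ribosome assembly factors (16.5%), and in 6 of 68 of the mitochondrial ribosomal proteins (8.82%), against 6.49% of all promoters and 8.67% of those of tested genes. In glycolysis, the pentose phosphate pathway and the hypoxia response 26 of 41 rose and 7 fell. HK2 rose from 6.05 and 6.59 RPKM to 18.7 and 15.7 RPKM (2.69-fold, limma adjusted p = 9.94e-05), PFKP rose from 29.6 and 28.2 RPKM to 87.2 and 82.8 RPKM (2.93-fold, limma adjusted p = 1.35e-05) and ENO1 rose from 408 and 425 RPKM to 1302 and 1263 RPKM (3.08-fold, limma adjusted p = 4.07e-05), whereas LDHA, at 374 and 417 RPKM without 4-OHT and 377 and 342 RPKM with it, was not called and the hypoxia factor gene EPAS1 fell from 61.5 and 57.9 RPKM to 15.7 and 14.3 RPKM (3.97-fold, limma adjusted p = 6.98e-06).

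Mitochondrial genes separated by genome. Of 77 mitochondrial ribosomal protein genes, which are nuclear, 60 rose and 5 fell (2 without untreated or treated clone 69). MRPL52 rose from 22.3 and 21.2 RPKM to 100.2 and 97.1 RPKM (4.52-fold, limma adjusted p = 3.08e-06), and MRPL17 rose from 38.5 and 40.2 RPKM to 124 and 141 RPKM (3.36-fold, limma adjusted p = 6.98e-06). Of 74 nuclear genes of the respiratory chain 36 rose and 6 fell (2 without untreated clone 69). UQCRC1, a core subunit of complex III, rose from 96.5 and 102.5 RPKM to 194 and 193 RPKM (1.95-fold, limma adjusted p = 4.9e-05), and CYCS, cytochrome c, rose from 20.0 and 22.6 RPKM to 42.6 and 38.9 RPKM (1.91-fold, limma adjusted p = 0.000105). Of 15 transcripts encoded in mitochondrial DNA none rose and 10 fell, with medians of -0.545 log2 in clone 66 and -0.480 in clone 69, while the WT median was 0.281 log2. MT-CO1, subunit 1 of cytochrome c oxidase, fell from 868 and 886 RPKM to 361 and 326 RPKM (2.56-fold, limma adjusted p = 0.000168). In the WT clones it changed by 0.053 and 0.251 log2, and the responses differed by -1.51 ± 0.198 log2 (limma adjusted p = 0.00787). MT-ND4 and MT-ND5, subunits of complex I, fell from 47.2 and 47.1 RPKM to 22.3 and 25.0 RPKM and from 60.5 and 60.1 RPKM to 46.6 and 43.1 RPKM (1.995-fold and 1.35-fold). MT-ND6, which is read from the other strand of the circle, fell from 47.1 and 53.3 RPKM to 32.2 and 34.1 RPKM (1.51-fold, limma adjusted p = 0.00072), with a difference of responses of -0.999 ± 0.12 log2 (limma adjusted p = 0.00619). The response was lower in KO for 9 of the 15 and higher for none, against 3.07% and 4.37% of all genes tested. With no filter on low values it was lower for 4. Here too the untreated level differed, at a median of 0.543 log2 above WT without 4-OHT and -0.16 log2 with it. The ribosomal RNAs MT-RNR1 and MT-RNR2, which depletion of ribosomal RNA would also remove, were not called and had changes of opposite sign in the 2 KO clones.

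**Figure D4:**
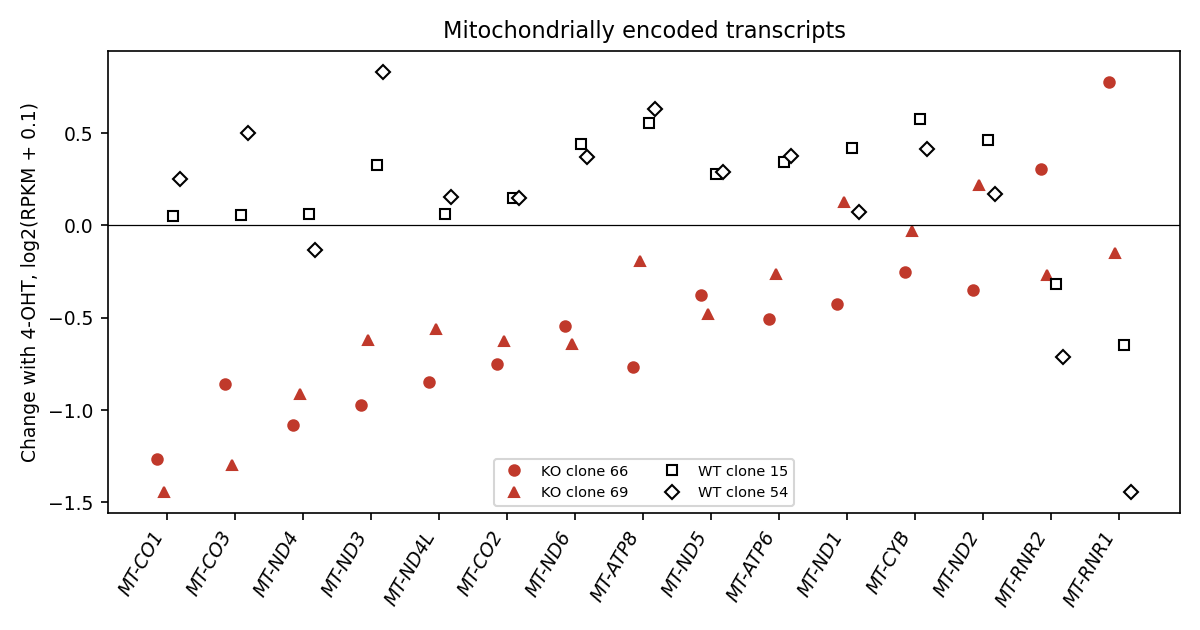
Change with 4-OHT, as a difference of log2(RPKM + 0.1), of 15 mitochondrially encoded transcripts in each clone; red circles and triangles are KO clones 66 and 69, open squares and diamonds WT clones 15 and 54. For MT-CO1 the KO clones are at -1.27 and -1.44 and the WT clones at 0.053 and 0.251, and for MT-RNR1 the order is reversed.

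Genes of protein breakdown and folding mostly rose, and those of the lysosome mostly fell. Of 47 proteasome genes 38 rose and 2 fell (38 and 4 in the WT clones). PSMD2, a subunit of the regulatory particle, rose from 48.4 and 50.1 RPKM to 215 and 206 RPKM (4.26-fold, limma adjusted p = 7.39e-06), and the base ATPase PSMC5 rose from 24.3 and 24.97 RPKM to 54.5 and 53.3 RPKM (2.18-fold, limma adjusted p = 1.45e-05). Of 32 heat shock and chaperonin genes 20 rose and 7 fell. The mitochondrial chaperonin HSPD1 rose from 141 and 156 RPKM to 347 and 324 RPKM (2.26-fold, limma adjusted p = 3.38e-05) and CCT2, a subunit of the cytosolic chaperonin, rose from 89.5 and 90.96 RPKM to 172 and 169 RPKM (1.89-fold, limma adjusted p = 8.04e-05), while the HSP70 family gene HSPA2 fell from 70.2 and 69.6 RPKM to 13.3 and 11.5 RPKM (5.64-fold, limma adjusted p = 2.52e-06). Nuclear pore and transport genes rose in 40 of 57 and fell in 2. RAN, the GTPase that gives transport its direction, rose from 93.3 and 98.0 RPKM to 227 and 225 RPKM (2.37-fold, limma adjusted p = 3.06e-05), and the export factor CSE1L rose from 16.1 and 17.5 RPKM to 54.2 and 52.7 RPKM (3.17-fold, limma adjusted p = 1.82e-05). Their response was higher in KO for 13 genes (22.8%) and lower for none, against 4.37% and 3.07% of all genes tested. The higher calls did not hold without treated clone 69. In the endoplasmic reticulum 14 of 30 genes of the unfolded protein response rose and 6 fell, and 7 rose without untreated clone 69. SDF2L1 rose from 11.6 and 12.3 RPKM to 58.2 and 47.8 RPKM (4.39-fold, limma adjusted p = 1.84e-05) and the main chaperone HSPA5 rose from 72.7 and 74.2 RPKM to 126 and 137 RPKM (1.79-fold, limma adjusted p = 0.000132).

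Lysosome and autophagy genes fell in 39 of 67 and rose in 7 (4 without untreated clone 69). GLB1, whose product gives the galactosidase stain used for senescent cells, fell from 34.5 and 33.9 RPKM to 19.7 and 19.7 RPKM (1.73-fold, limma adjusted p = 0.000127). The cathepsins CTSF and CTSO fell from 27.97 and 29.1 RPKM to 3.98 and 4.42 RPKM and from 19.8 and 20.2 RPKM to 3.06 and 2.91 RPKM (6.66-fold and 6.54-fold), and acid glucosidase, GAA, fell from 47.3 and 39.5 RPKM to 10.9 and 10.6 RPKM (3.99-fold, limma adjusted p = 1.01e-05). GABARAPL1, which coats autophagosomes, fell from 184 and 173 RPKM to 12.8 and 13.9 RPKM (13.3-fold, limma adjusted p = 1.33e-06), further than in the WT clones, which had 157 and 127 RPKM without and 33.7 and 32.04 RPKM with 4-OHT, a difference of -1.64 ± 0.15 log2 (limma adjusted p = 0.0053). The response was lower in KO for 10 of the 67 and higher for 1 (1.49%), against 3.07% and 4.37% of all genes tested. Most of the lower calls did not hold without untreated clone 69. The integrated stress response rose in 22 of 42 genes and fell in 5. CHAC1, a glutathione-degrading target of ATF4, rose from 8.04 and 6.77 RPKM to 97.95 and 105 RPKM (13.6-fold, limma adjusted p = 1.06e-06), the cystine carrier SLC7A11 rose from 7.096 and 8.86 RPKM to 25.4 and 31.9 RPKM (3.55-fold, limma adjusted p = 0.000269), and DDIT3, at 3.57 and 3.36 RPKM without 4-OHT and 2.65 and 4.56 RPKM with it, was not called.

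Genes that p53 is known to activate rose in 29 of 48 and fell in 6, with a median of 0.692 log2 in KO and 0.855 in WT. PMAIP1, the BH3-only protein NOXA, rose from 8.25 and 7.32 RPKM to 113 and 102.4 RPKM (13.7-fold, limma adjusted p = 6.47e-07), and the death receptor TNFRSF10B rose from 14.7 and 14.8 RPKM to 34.7 and 35.05 RPKM (2.36-fold, limma adjusted p = 1.1e-05). GDF15, a secreted stress factor, rose from 5.89 and 4.25 RPKM to 12.5 and 10.4 RPKM (2.25-fold, limma adjusted p = 0.00326), and TP53I3 rose from 17.9 and 18.6 RPKM to 40.2 and 36.96 RPKM (2.11-fold, limma adjusted p = 0.000154). The response was lower in KO for 5 of the 48 and higher for 1 (2.08%), against 3.07% and 4.37% of all genes tested. The lower calls did not hold without untreated clone 66. Of 24 genes of the BCL2 family and death receptors 16 rose and 5 fell (3 without untreated clone 66). MCL1, an inhibitor of cell death, rose from 53.6 and 56.0 RPKM to 98.9 and 96.6 RPKM (1.78-fold, limma adjusted p = 5.05e-05), and the BH3-only genes BMF and BCL2L11 fell from 2.57 and 2.41 RPKM to 0.338 and 0.208 RPKM and from 0.7602 and 0.831 RPKM to 0.0353 and 0.05801 RPKM (7.05-fold and 6.12-fold).

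Inflammatory genes did not form 1 pattern. Of 21 genes of the interleukin 1 and 6 families 8 rose and 7 fell. IL6 had 3, 0, 3 and 2 reads in untreated clones 66 and 69 and treated clones 66 and 69 and was not tested. Of 22 listed chemokines of the senescent secretory programme only 7 were tested, and 2 rose and 3 fell (median -0.369 log2). That is 28.6% and 42.9%, against 28.7% and 26.9% of all genes tested. Changes ran from -3.89 log2 for CXCL12 to 5.83 log2 for CXCL8. IL1B, an interleukin of the senescent secretory programme, rose from 1.93 and 3.38 RPKM to 34.1 and 42.4 RPKM (14.3-fold, limma adjusted p = 2.92e-05), and IL11 rose from 2.14 and 1.72 RPKM to 17.5 and 14.6 RPKM (7.97-fold, limma adjusted p = 7.01e-05). CXCL1 rose from 0.113 and 0.111 RPKM to 2.06 and 1.43 RPKM (8.58-fold, limma adjusted p = 0.000189), and CXCL12 fell from 3.88 and 3.74 RPKM to 0.128 and 0.204 RPKM (14.8-fold, limma adjusted p = 0.00074), a call lost in limma-voom (limma adjusted p = 0.109). The transcription factor gene CEBPD fell from 62.6 and 61.9 RPKM to 4.01 and 4.42 RPKM (14.5-fold, limma adjusted p = 6.47e-07), by more than in WT, with a difference of -1.16 ± 0.13 log2 (limma adjusted p = 0.00547), and the adhesion receptor ICAM1 fell from 50.5 and 49.9 RPKM to 5.58 and 7.29 RPKM (7.76-fold, limma adjusted p = 5.55e-06). STAT3 fell from 76.6 and 74.8 RPKM to 34.1 and 33.7 RPKM (2.23-fold, limma adjusted p = 2.25e-05). Of 21 genes of NF-kappaB and its feedback 6 rose and 6 fell. That is 28.6% each way, near the 28.7% and 26.9% of all genes tested. Fewer fell when either untreated KO library was left out. Of the prostaglandin genes PTGES, prostaglandin E synthase, fell from 17.4 and 17.6 RPKM to 0.6203 and 0.897 RPKM (20.8-fold, limma adjusted p = 1.14e-05), and PTGS2 (cyclooxygenase 2), at 66.6 and 59.1 RPKM without 4-OHT and 34.2 and 49.9 RPKM with it, was not called.

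Interferon-stimulated genes fell in 27 of 42 and rose in 1, with a median of -0.722 log2 (-0.805 in WT). The 1 that rose was IRF1, itself a factor of the response, which went from 4.01 and 3.63 RPKM to 7.19 and 8.24 RPKM and is named after its value was seen. STAT2, a subunit of the factor that interferon activates, fell from 47.98 and 49.5 RPKM to 11.7 and 11.8 RPKM (4.13-fold, limma adjusted p = 3.97e-06). IFIT2, an RNA-binding antiviral protein, fell from 12.3 and 14.2 RPKM to 1.45 and 1.79 RPKM (7.78-fold, limma adjusted p = 7.88e-06), and IFI6 fell from 83.6 and 107 RPKM to 26.1 and 29.3 RPKM (3.405-fold, limma adjusted p = 3.98e-05), while ISG15, at 44.8 and 59.6 RPKM without 4-OHT and 36.9 and 33.05 RPKM with it, was not called. The interferon response element was searched on both strands as a pair of GAAA words 2 bases apart, and was in 19 of 33 of their promoters (57.6%), in 3.07% of all and in 2.45% of those of tested genes. Of the 19 genes 14 fell and none rose. IFIT1, which had the smallest p of the matching genes eligible for display, is shown (chr10:89392373-89392545, plus strand), with matches 116 and 103 bases before the start in capitals.

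IFIT1: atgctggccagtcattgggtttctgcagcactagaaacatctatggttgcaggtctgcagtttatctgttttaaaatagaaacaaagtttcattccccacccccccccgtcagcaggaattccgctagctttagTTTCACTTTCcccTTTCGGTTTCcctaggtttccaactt

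IFIT1 fell from 13.4 and 17.7 RPKM to 2.09 and 3.01 RPKM (5.95-fold, limma adjusted p = 3.68e-05). Antigen presentation by MHC class I fell in 8 of 17 genes and rose in 2. The light chain B2M fell from 1156 and 1202 RPKM to 411 and 433 RPKM (2.79-fold, limma adjusted p = 6.28e-05), HLA-B fell from 1087 and 1218 RPKM to 414 and 371 RPKM (2.93-fold, limma adjusted p = 3.86e-05), and HLA-E fell from 238 and 234 RPKM to 111 and 109 RPKM, a difference from the WT response of -0.83 ± 0.099 log2 (limma adjusted p = 0.00619). The peptide transporter TAP1 rose from 24.2 and 24.4 RPKM to 30.6 and 31.4 RPKM (1.27-fold, limma adjusted p = 0.00791). HLA genes vary between people and have close relatives, so their levels depend on the alignment. Complement genes fell in 13 of 17 and rose in 2. The proteases that start the classical pathway, C1R and C1S, fell from 69.05 and 70.0 RPKM to 4.76 and 4.99 RPKM and from 21.5 and 23.6 RPKM to 0.897 and 1.20 RPKM (13.99-fold and 19.9-fold).

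Small proteoglycans and matrix glycoproteins mostly fell, and collagen chains fell more often than they rose. All 10 small leucine-rich proteoglycans that passed the filter, of 15 listed, fell, although 5 did so without untreated clone 66. Lumican, LUM, which spaces collagen fibrils, fell from 766 and 846 RPKM to 20.4 and 23.6 RPKM (36.5-fold, limma adjusted p = 9.57e-06), and decorin, DCN, fell from 67.7 and 78.97 RPKM to 1.04 and 1.11 RPKM (62.3-fold, limma adjusted p = 6.47e-07). Of 30 collagen chains 15 fell and 9 rose. COL1A2 fell from 1406 and 1210 RPKM to 337 and 291 RPKM (4.16-fold, limma adjusted p = 1.1e-05) and COL3A1 fell from 354 and 352 RPKM to 130.4 and 123 RPKM (2.78-fold, limma adjusted p = 1.56e-05), less than in the WT clones, which had 533 and 465 RPKM without and 88.8 and 95.3 RPKM with 4-OHT, a difference of 0.96 ± 0.12 log2 (limma adjusted p = 0.0071). The collagen VI chains COL6A1 and COL6A2 rose from 76.99 and 62.7 RPKM to 297 and 205 RPKM and from 352 and 291 RPKM to 719.7 and 561 RPKM (3.54-fold and 1.98-fold), named after their values were seen. COL10A1, the collagen of hypertrophic cartilage, rose from 0.137 and 0.134 RPKM to 18.97 and 10.2 RPKM (59.6-fold, limma adjusted p = 3.58e-05). Of 43 matrix glycoproteins 29 fell and 4 rose. EFEMP2, an elastic fibre protein, fell from 164 and 146 RPKM to 48.7 and 50.2 RPKM (3.13-fold, limma adjusted p = 7.59e-06), THBS2 fell from 126 and 117 RPKM to 53.1 and 52.5 RPKM (2.30-fold, limma adjusted p = 1.51e-05), and LTBP1, a latent TGF-beta binding protein, rose from 2.47 and 2.07 RPKM to 30.9 and 27.5 RPKM (12.4-fold, limma adjusted p = 9.63e-06). Processing enzymes fell in 12 of 24. The procollagen enhancer PCOLCE fell from 318 and 290.3 RPKM to 62.8 and 55.2 RPKM (5.15-fold, limma adjusted p = 3.37e-06), and the lysyl hydroxylase PLOD2 fell from 83.4 and 88.99 RPKM to 49.99 and 48.3 RPKM, while the WT clones had 77.7 and 72.4 RPKM without and 96.6 and 83.4 RPKM with 4-OHT, a difference of -1.07 ± 0.13 log2 (limma adjusted p = 0.00619).

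The enzymes that cut the matrix changed in both directions. Of 31 metalloproteases, ADAMTS proteases and inhibitors 17 fell (54.8%) and 7 rose (22.6%), against 26.9% and 28.7% of all genes tested. MMP14, the membrane-bound activator of other proteases, rose from 142 and 124 RPKM to 636 and 538 RPKM (4.39-fold, limma adjusted p = 1.04e-05), and its inhibitor gene TIMP3 rose from 42.7 and 48.1 RPKM to 197 and 166 RPKM (3.98-fold, limma adjusted p = 9.58e-06). ADAMTS1 fell from 553 and 475 RPKM to 18.7 and 12.5 RPKM (33.4-fold, limma adjusted p = 3.59e-06), with a difference from WT of -1.98 ± 0.28 log2 (limma adjusted p = 0.00918). MMP3, at 30.97 and 24.2 RPKM without 4-OHT and 42.2 and 23.4 RPKM with it, was not called. Urokinase and tissue plasminogen activator, PLAU and PLAT, rose from 8.13 and 7.67 RPKM to 660.4 and 608 RPKM and from 21.9 and 20.2 RPKM to 589 and 479.7 RPKM (79.2-fold and 25.1-fold), and the protease inhibitor gene A2M fell from 37.3 and 44.3 RPKM to 2.11 and 2.58 RPKM (16.8-fold, limma adjusted p = 2.52e-06). Integrins and laminins divided evenly, 11 of 28 rising and 11 falling. ITGA2, a collagen receptor chain, rose from 5.07 and 5.695 RPKM to 131 and 124 RPKM (23.4-fold, limma adjusted p = 3.38e-05), ITGA5, of the fibronectin receptor, rose from 41.9 and 38.9 RPKM to 136 and 121 RPKM (3.18-fold, limma adjusted p = 2.29e-05), and LAMA3 fell from 3.56 and 3.64 RPKM to 0.259 and 0.243 RPKM (10.6-fold, limma adjusted p = 2.2e-05).

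Contractile and actin genes fell in 24 of 41 and rose in 6. CALD1, caldesmon, fell from 1099 and 1164 RPKM to 238 and 243 RPKM (4.701-fold, limma adjusted p = 1.9e-06), the kinase gene MYLK fell from 242 and 237 RPKM to 83.2 and 78.5 RPKM (2.96-fold, limma adjusted p = 5.75e-06), and LMOD1, leiomodin, fell from 19.6 and 21.3 RPKM to 0.503 and 0.805 RPKM (27.8-fold, limma adjusted p = 9.44e-06). Myosin MYH9, at 165 and 139.6 RPKM without 4-OHT and 167 and 127 RPKM with it, was not called. The response was lower in KO for 7 members and higher for 2 (4.88%), against 3.07% and 4.37% of all genes tested. With no filter it was lower for none. Targets of YAP and TEAD, which read mechanical tension, fell in 24 of 33 and rose in 5. AMOTL2 fell from 80.9 and 75.03 RPKM to 24.4 and 21.5 RPKM (3.39-fold, limma adjusted p = 1.12e-05) and TEAD1 fell from 61.8 and 64.8 RPKM to 30.96 and 30.1 RPKM (2.07-fold, limma adjusted p = 6.07e-05), while the surface nucleotidase NT5E (CD73) rose from 9.19 and 8.01 RPKM to 283 and 306 RPKM (33.9-fold, limma adjusted p = 2.61e-06). The TEAD word CATTCC, on either strand, was in 7 of 26 of their promoters (26.9%), in 11.9% of all and in 9.56% of those of tested genes. Of the 7 genes 5 fell and 1 rose. The AP-1 word TGANTCA was in 0 of 20 promoters of the ETS and AP-1 list and in 2 of 18 of the metalloprotease list (11.1%), against 4.16% of those of tested genes. The promoter of CCN2, which encodes connective tissue growth factor, is shown (chr6:131951374-131951622, minus strand), with 3 matches in capitals. It had the smallest p of the genes with the TEAD word that were eligible for display.

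CCN2: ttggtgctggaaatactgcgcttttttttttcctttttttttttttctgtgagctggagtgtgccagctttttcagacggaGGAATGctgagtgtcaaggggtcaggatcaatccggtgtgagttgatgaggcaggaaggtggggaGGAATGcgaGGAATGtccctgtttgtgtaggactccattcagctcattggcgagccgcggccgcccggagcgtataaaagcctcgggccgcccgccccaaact

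CCN2 fell from 109.5 and 110.5 RPKM to 31.3 and 25.8 RPKM (3.86-fold, limma adjusted p = 2.31e-05). Among 43 genes of TGF-beta and BMP signalling 22 fell and 10 rose. The inhibitor SMAD6 fell from 11.3 and 8.79 RPKM to 0.0591 and 0.0665 RPKM (61.9-fold, limma adjusted p = 2.61e-06), the BMP antagonist GREM1 fell from 23.7 and 25.7 RPKM to 0.696 and 0.603 RPKM (33.1-fold, limma adjusted p = 6.47e-07), with a difference from WT of -1.59 ± 0.16 log2 (limma adjusted p = 0.0053), and the ubiquitin ligase SMURF2 rose from 25.1 and 26.1 RPKM to 117 and 109 RPKM (4.39-fold, limma adjusted p = 3.08e-06). The WNT list fell in 14 of 32 and rose in 6. The WNT antagonist DKK1 fell from 264 and 253 RPKM to 54.2 and 42.3 RPKM (5.39-fold, limma adjusted p = 1.92e-05), WNT5A fell from 152 and 169 RPKM to 68.9 and 57.1 RPKM (2.56-fold, limma adjusted p = 0.000836), and the receptor gene FZD8 rose from 0.534 and 0.412 RPKM to 8.27 and 6.16 RPKM (12.7-fold, limma adjusted p = 4.69e-05). The insulin-like growth factor axis fell in 8 of 13 and rose in 1. Its binding proteins IGFBP3 and IGFBP6 fell from 335 and 305 RPKM to 14.5 and 10.8 RPKM and from 889 and 894 RPKM to 145 and 193 RPKM (25.3-fold and 5.34-fold), and the receptor IGF1R fell from 8.899 and 9.03 RPKM to 2.38 and 2.02 RPKM (3.95-fold, limma adjusted p = 2.02e-05).

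Identity and positional genes changed less uniformly. Of 44 mesenchymal transcription factors 20 fell and 9 rose. PRRX1, a factor of limb mesenchyme, rose from 22.9 and 21.7 RPKM to 144 and 132 RPKM (6.16-fold, limma adjusted p = 4.38e-06), TBX2, a repressor known to oppose senescence, rose from 2.34 and 1.98 RPKM to 21.3 and 20.6 RPKM (9.32-fold, limma adjusted p = 1.97e-06), and MAF fell from 28.2 and 22.01 RPKM to 1.93 and 2.197 RPKM (11.6-fold, limma adjusted p = 3.08e-06). Of 16 HOX genes that passed 7 fell and none rose, and 3 fell without untreated clone 69. HOXA13, of the most distal body position, fell from 21.2 and 21.6 RPKM to 7.71 and 6.72 RPKM (2.94-fold, limma adjusted p = 1.48e-05). The antisense RNA HOTAIR fell from 6.65 and 7.40 RPKM to 0.972 and 0.841 RPKM (7.08-fold, limma adjusted p = 7.62e-05), and the nuclear RNA MALAT1 fell from 172 and 191 RPKM to 69.9 and 68.7 RPKM (2.61-fold, limma adjusted p = 0.000167). A strand setting of the counting is not given in the sources used here, so reads of a gene and an overlapping antisense gene may not be separable. Retinoid genes fell in 11 of 18 and rose in 2. CRABP2, which carries retinoic acid to the nucleus, fell from 496 and 474 RPKM to 13.9 and 21.98 RPKM (27.6-fold, limma adjusted p = 4.16e-06), and the retinol dehydrogenase RDH10 fell from 112 and 126 RPKM to 3.42 and 3.06 RPKM, further than in WT by -2.29 ± 0.28 log2 (limma adjusted p = 0.00683). Axon guidance genes fell in 23 of 48 (47.9%) and rose in 13 (27.1%), against 26.9% and 28.7% of all genes tested. SEMA3A rose from 27.5 and 34.8 RPKM to 121 and 112 RPKM (3.76-fold, limma adjusted p = 1.99e-05), while SEMA3B and SLIT2 fell from 36.5 and 28.4 RPKM to 1.30 and 1.01 RPKM and from 29.3 and 24.6 RPKM to 2.64 and 2.99 RPKM (25.9-fold and 9.27-fold).

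**Figure D5:**
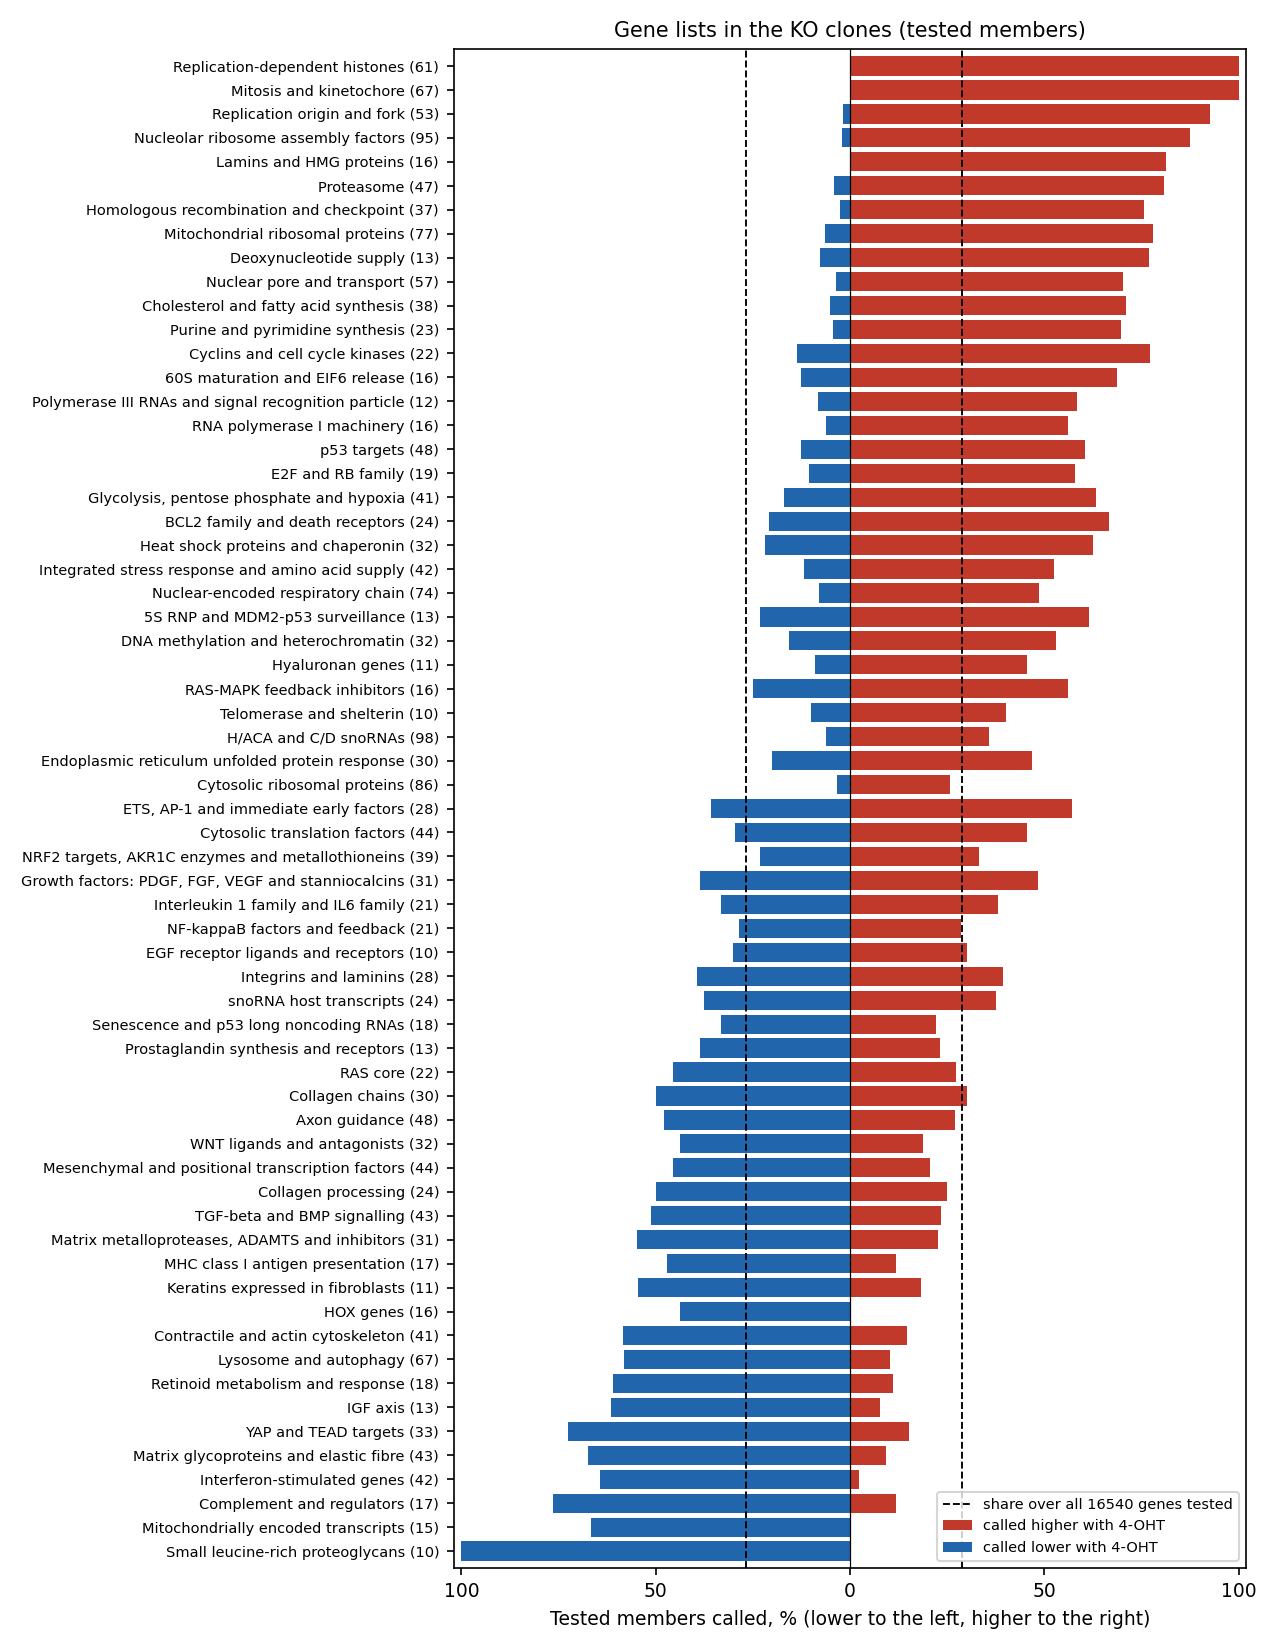
Share of tested members of each gene list that rose (red, right) or fell (blue, left) with 4-OHT in the KO clones, with the number tested in brackets; dashed lines mark 28.7% and 26.9%, the shares over all 16540 genes. Histone and mitosis lists reach 100% on the right and small leucine-rich proteoglycans 100% on the left.

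Single genes outside the cell cycle also answered 4-OHT differently in the KO clones. NTN4, the secreted guidance protein netrin 4, fell from 214 and 197 RPKM to 4.099 and 4.71 RPKM (45.7-fold, limma adjusted p = 2.18e-06), and in WT it stood at 174 and 116 RPKM without and 19.6 and 22.7 RPKM with 4-OHT, a difference of -2.77 ± 0.26 log2 (limma adjusted p = 0.0053). KRT34, a hair keratin gene, fell from 12.4 and 11.1 RPKM to 0.827 and 0.969 RPKM (11.9-fold, limma adjusted p = 6.7e-05), and in WT it had 2.78 and 1.401 RPKM without and 2.04 and 1.48 RPKM with 4-OHT, a difference of -3.39 ± 0.43 log2 (limma adjusted p = 0.00704). OLFML2B, a matrix protein, rose from 1.36 and 1.01 RPKM to 10.3 and 8.65 RPKM (7.49-fold, limma adjusted p = 8.46e-05), and in WT it had 4.97 and 4.601 RPKM without and 3.21 and 5.604 RPKM with 4-OHT, a difference of 3.07 ± 0.37 log2 (limma adjusted p = 0.00619). FHOD3, a formin of the sarcomere, differed in its starting level. The KO clones had 9.93 and 9.95 RPKM without 4-OHT and 7.68 and 6.54 RPKM with it, and the WT clones 1.496 and 1.33 RPKM without and 6.77 and 6.75 RPKM with 4-OHT, so that the treated levels met while the untreated ones were apart, a difference of -2.67 ± 0.16 log2 (limma adjusted p = 0.00242). PRSS3, a trypsin gene with close relatives, was near background in WT, at 0.0367 and 0.191 RPKM without and 0.104 and 0.199 RPKM with 4-OHT, and rose in KO from 2.39 and 2.16 RPKM to 50.99 and 41.02 RPKM (19.3-fold, limma adjusted p = 6.77e-05). Of the 9206 genes called in KO, 97 moved against a called change in the WT clones.

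The changes in the 2 KO clones were more than 1 log2 apart in 817 of the genes tested (4.94%). The 8 with a mean of at least 5 RPKM whose changes differed most were 6 C/D snoRNAs, a processed pseudogene and TRPC6. SNORD65, which was not called, had changes of 2.48 in clone 66 and -1.48 in clone 69, on 3, 12, 16 and 4 reads in untreated 66 and 69 and treated 66 and 69. TRPC6, a calcium-permeable channel gene, fell in both, from 11.5 and 14.2 RPKM to 0.378 and 0 RPKM (limma adjusted p = 0.00129). It had 100, 126, 3 and 0 reads in the same order.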

How the data were processed

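Total RNA of 8 libraries (miRNeasy with DNase, stranded Illumina kit, per the labels' protocols) was deposited by the authors as 1 table of RPKM per gene. STAR, featureCounts, edgeR and GRCh38 are named in the submitters' processing notes, without versions or settings, which are not given in the sources at hand. Column headings give the clone and, read here so, a minus sign for no 4-OHT. The 45 pseudoautosomal Y copies were left out of 58870 rows.

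RPKM values were whole multiples of 1 read (100% within 0.1 read, with lengths from GENCODE 29 for 51380 genes and inferred for 6674), so reads were recovered for filters and depth. Library totals were 22057911 to 24908491 reads, and the limit a count of 0 allows covers counting error only. Genes with at least 10 reads in 2 libraries and 15 in all were kept. log2(RPKM + 0.1), after TMM scaling (factors 0.9402 to 1.035), was fitted in limma 3.58.1 (R 4.3.3) with the 4 group means over all 8 libraries, with trend and robust variance, and Benjamini-Hochberg adjustment at 0.05. A count test would have been the main one for counts, and RPKM took limma, as planned. The fit was tested on simulated data. The same clone was taken with and without 4-OHT, so clone numbers pair the libraries by the labels. Deviations of same-numbered libraries from their group means correlated at 0.00535 in KO and 0.309 in WT.

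Genes were named by rule: key genes of the lists, the 4 members with the smallest p in a list, and the 15 largest changes in each direction. Those 15 came from called genes with at least 5 RPKM in the higher group, at least 10 reads and groups that did not overlap. Also named were the 8 largest differences of responses in each direction, and the 8 genes whose clones differed most. CCN2 came from the promoter rule. Members and lists were chosen with earlier results of these data known. Promoters are RefSeq's, GRCh38.p14. Alternatives were other pseudocounts, filters, scalings, a clone block, limma-voom on recovered reads, the KO libraries alone, and leaving out each library.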

Additional observations from a re-analysis of the deposited data

Results flagged for a closer look

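The responses of KO and WT clones to 4-OHT differed by the limma test of the difference itself, higher in KO for 722 genes and lower for 508. The genes below had the largest such differences in each direction, given as KO response minus WT response in log2. The spread behind them is that of single libraries from 2 clones per group.

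Among those higher in KO were 4 replication-dependent histone genes, HIST2H4B at 3.78, HIST2H3D at 3.24, HIST1H3G at 3.04 and HIST1H2AJ at 2.98. The kinetochore gene NUF2 was at 3.09 and the matrix gene OLFML2B at 3.07. The trypsin gene PRSS3 was at 3.96, and its difference was not called with a pseudocount of 0.01. SCARNA22, a small Cajal body RNA with few reads, was at 4.41.

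Among those lower in KO, the keratin gene KRT34 was at -3.39, the guidance gene NTN4 at -2.77 and the formin gene FHOD3 at -2.67. The endothelin gene EDN1 was at -2.89, the protease gene ADAMTS5 at -2.72 and the small heat shock gene HSPB3 at -2.60. KRT4 stood at -2.90 and PTGIS at -3.21, and since neither had a read in the treated KO libraries, these fitted values depend on the pseudocount and are no bound. The calls of ADAMTS5, EDN1, HSPB3, KRT4, PTGIS, HIST2H3D and SCARNA22 were each lost in at least 1 alternative.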

How the results depend on the processing

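The 4-OHT response of the KO clones gave counts within 1.5 times of 4753 and 4453 under every alternative run. Leaving out 1 library gave 3785 to 4950 genes higher and 3345 to 4628 lower. With the clone as a block, which pairs the libraries of a clone, they were 4766 and 4526, and no named gene lost its call of a response. The difference of responses under the block was 794 and 550, and 13 of 145 named genes lost that call. Scaling by library size alone gave 4277 and 4756, with 47.3% of calls higher against 51.6%. Of 412 named genes called, 382 kept the call in every setting and none reversed. The difference of responses was less stable. With no filter it was higher for 305 genes and lower for 132, and limma-voom on recovered reads gave 827 lower. Leaving out 1 library gave 197 to 1107 higher and 71 to 1009 lower, where the group that lost a library had 1 left, assumed to vary like the others. The cause of the other shifts was not tested. Of 145 named genes with a called difference, 59 kept it in every setting. Of 92 list counts of at least 5, 18 moved by over 1.5 times in at least 1 setting. Depth limits SNORA13 and other short or scarce RNAs, which had few reads.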
